A study of Mus musculus with 9 samples.

Results

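The 10 genes Tsc22d3, Klf9, Arid5b, Sgk1, Sik1, Pdk4, Ddit4, Nfkbia, Cdkn1a and Arrdc2 were followed through the trigeminal ganglion (TG) after injection into the temporomandibular joint (TMJ). They were taken as genes known to be induced by glucocorticoids that stood high on day 6 after complete Freund's adjuvant (CFA), so their CFA6D values are what chose them and are given as a description. Their positions below are those of GENCODE on GRCm38. They are 10 of the 21809 genes summed from the transcripts of mRNA, and all 10 were among the 16096 genes that reached 0.1 FPKM on average (read pairs per length of transcript, normalised by the authors to the mapped total) and entered the tests. Total RNA was sequenced in 9 libraries, 3 per group, and each library pooled punches of 1 TG from 3 mice, so n = 3 pools throughout. All mice were 8-week-old male WT C57BL/6 animals injected on one side with 10 µl under isoflurane. Saline libraries 1 to 3 received saline and are labelled day 3, CFA3D libraries 1 to 3 received CFA at 5 mg/ml and were collected on day 3, and CFA6D libraries 4 to 6 received the same CFA and were collected on day 6. No saline library of day 6 was analysed here, so on day 6 the effect of CFA and that of the day of collection cannot be told apart. The hour of collection is not given in the sources used here.

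Glucocorticoids, the steroid hormones released by the adrenal cortex under stress, enter cells and bind the glucocorticoid receptor, which is held in the cytoplasm by heat shock proteins and their partners. The bound receptor moves to the nucleus and attaches to DNA at glucocorticoid response elements, raising a set of genes within hours. Many of these genes act as brakes, on inflammatory transcription factors, on growth signalling or on the use of glucose. Several also answer to other inputs: Sik1 to cAMP, Nfkbia to NF-κB, Cdkn1a to p53, Ddit4 to energy and unfolded protein stress, and Pdk4 and Klf9 to fasting signals and thyroid hormone. In sensory ganglia the neurons are wrapped by satellite glia and their axons by Schwann cells, and all of these cells carry the receptor.

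The depth behind the tables was estimated at 30.6 to 43.1 M read pairs per library. Averaged over the libraries, 13 of 13 sensory neuron, 6 of 6 satellite glia and 7 of 7 Schwann cell markers of the labelled tissue passed 0.1 FPKM. In every library they summed to at least 2632 FPKM (sensory neuron), 260 FPKM (satellite glia) and 2654 FPKM (Schwann cell). In a principal component analysis CFA6D library 6 stood apart on the leading component (-66.3, the other 8 libraries between -3.79 and 21.4) and saline library 3 on the next (-45.8, the others between -13.3 and 29.5). These libraries also held RNA of other cells. The 8 neutrophil markers summed to 2749 FPKM in CFA6D library 6 and to between 25.7 and 142 FPKM in the others, and the 6 pituitary markers summed to 10660 FPKM in saline library 3 and to between 8.89 and 1115 FPKM in the others. Saline library 2 had the highest sums of the 11 skeletal muscle markers (243 FPKM against 27.9 to 122) and of the 7 adipocyte markers (126 FPKM against at most 5.47, with Lep at 0 in all libraries). Values without 1 or more of these libraries stand below beside some of the results that they change, and other counts given below can change too. In such bulk samples, fewer cells of a type and less RNA per cell cannot be told apart.

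Every CFA6D library lay above every saline and every CFA3D library in 8 of the 10 genes, the exceptions being Cdkn1a and Pdk4. Over all gene sums, 3.56% had all CFA6D libraries above all other libraries. The members were chosen on these values, so nothing is read from that count. Between CFA3D and saline, a comparison that the choice did not name, none of the 10 genes differed beyond the spread between libraries.

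**Figure D1:**
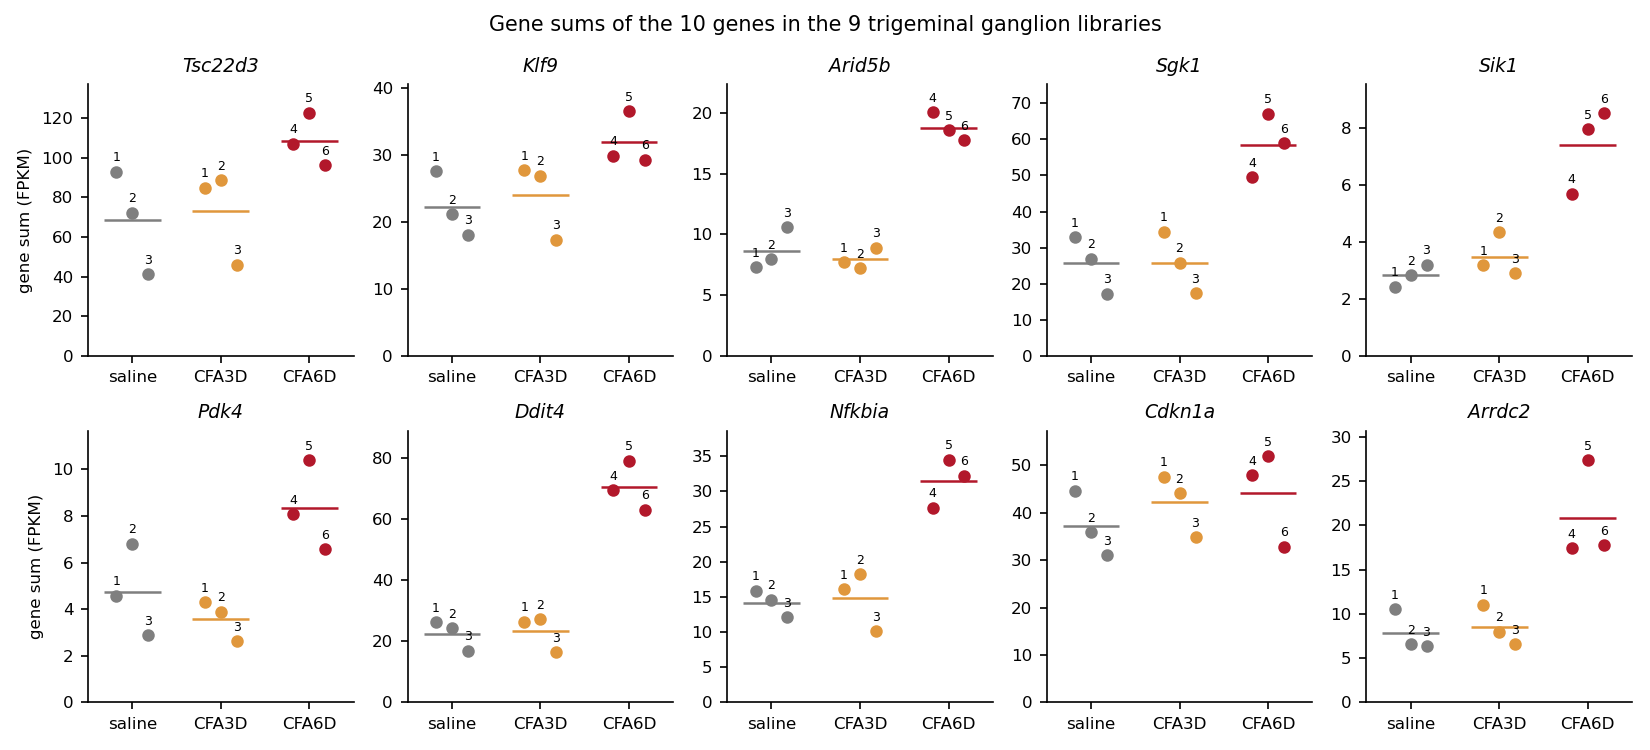
Gene sums of the 10 genes in FPKM (y axes, each starting at 0) in the 3 saline, 3 CFA3D and 3 CFA6D libraries. Points are libraries with their numbers and bars are group means. In 8 panels the 3 CFA6D points lie above all 6 others, while Pdk4 and Cdkn1a overlap, and the libraries numbered 3 lie low in most panels.

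Tsc22d3, Klf9 and Arid5b encode regulators of transcription. Tsc22d3 (ENSMUSG00000031431, chrX:140539528-140600659, - strand) encodes GILZ, a leucine zipper protein that binds and restrains NF-κB and AP-1. Its gene sum was 92.9, 72.2 and 41.2 FPKM in saline libraries 1, 2 and 3, 84.8, 88.6 and 45.9 FPKM in CFA3D libraries 1, 2 and 3, and 107, 122.7 and 96.1 FPKM in CFA6D libraries 4, 5 and 6. It was the most abundant of the 10. Saline and CFA3D overlapped, and CFA6D lay above both, but the lowest CFA6D library stood only just above saline library 1. The mean was 68.7 ± 26.0 FPKM (SD, n = 3) in saline and 108.6 ± 13.4 FPKM on CFA6D, a difference of 0.73 ± 0.32 (SE) on the log2(FPKM + 0.1) scale, which fell to 0.40 without saline library 3. Tsc22d3 varied 2.25-fold among the saline libraries alone, more than the 1.58-fold between the means of CFA6D and saline.

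Klf9 (ENSMUSG00000033863, chr19:23141226-23168134, + strand) encodes a Krüppel-like factor that binds GC-rich promoters and represses transcription. Klf9 measured 27.5, 21.1 and 18.1 FPKM in saline, 27.7, 26.9 and 17.4 FPKM on CFA3D and 29.9, 36.5 and 29.2 FPKM on CFA6D, each in library order. The CFA6D libraries again lay above all others by a small margin. The CFA6D difference from saline was 0.53 ± 0.20 (SE) on the log2 scale and 0.39 without saline library 3.

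Arid5b (ENSMUSG00000019947, chr10:68092520-68278740, - strand) encodes an AT-rich DNA-binding protein that recruits a histone demethylase in fat and other mesenchymal cells. Its gene sum was 7.30, 7.94 and 10.6 FPKM in saline, 7.71, 7.22 and 8.90 FPKM on CFA3D and 20.0, 18.6 and 17.8 FPKM on CFA6D. This was the tightest separation of the 10: the CFA6D libraries lay within 1.13-fold of each other, and the lowest of them was well above saline library 3, the highest of the rest. Unlike most of the other genes, Arid5b was highest, not lowest, in the library numbered 3 of the saline group and of the CFA3D group.

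Sgk1, Sik1 and Pdk4 encode kinases. Sgk1 (ENSMUSG00000019970, chr10:21882184-21999903, + strand) encodes serum and glucocorticoid regulated kinase, which raises the surface level of sodium channels and carriers. Sgk1 stood at 33.0, 27.0 and 17.2 FPKM in saline, at 34.4, 25.8 and 17.4 FPKM on CFA3D and at 49.6, 67.2 and 58.9 FPKM on CFA6D. All CFA6D libraries were clear of the others, and the means of saline and CFA3D, 25.7 ± 7.94 and 25.9 ± 8.50 FPKM (SD, n = 3), were nearly equal.

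The start sites of Sgk1 are shown because its transcripts did not move together and because one of its promoters held the one match to a full glucocorticoid response element among the windows searched for the 10 genes. The windows are those of RefSeq on GRCm38.p6, which gave 17 windows for 9 of the 10 genes, Sik1 being the one without. Windows were paired with transcripts whose start lay within 10 bases. No window was paired with Tsc22d3-201 or Arid5b-203, the transcripts with the highest mean of their genes, so their start sites were not searched. Each sequence below is the 250 bases before a start site, 5′ to 3′ on the + strand of chr10, with the element, an inverted repeat of 6-base half-sites around a spacer of 3 bases, and the E-box CACGTG in capitals.
Sgk1-204 (chr10:21881934-21882183): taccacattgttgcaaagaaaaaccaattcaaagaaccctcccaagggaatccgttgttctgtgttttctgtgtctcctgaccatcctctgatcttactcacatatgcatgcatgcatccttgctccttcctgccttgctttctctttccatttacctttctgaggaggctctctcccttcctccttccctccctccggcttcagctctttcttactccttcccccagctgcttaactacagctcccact
Sgk1-202 (chr10:21993640-21993889): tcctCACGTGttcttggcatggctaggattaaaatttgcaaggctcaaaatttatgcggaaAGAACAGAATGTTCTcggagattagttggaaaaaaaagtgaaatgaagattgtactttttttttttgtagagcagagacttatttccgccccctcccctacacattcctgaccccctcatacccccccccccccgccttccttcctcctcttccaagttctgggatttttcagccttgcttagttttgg
Sgk1-201 (chr10:21994416-21994665): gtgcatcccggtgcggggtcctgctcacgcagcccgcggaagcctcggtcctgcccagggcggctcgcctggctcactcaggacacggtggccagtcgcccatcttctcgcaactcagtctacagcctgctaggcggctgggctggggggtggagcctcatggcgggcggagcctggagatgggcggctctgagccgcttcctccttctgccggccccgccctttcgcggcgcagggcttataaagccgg
The Sgk1-202 window held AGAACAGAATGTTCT at positions -189 to -175 from the start site and CACGTG at -246 to -241. The windows of Sgk1-204, which starts 111.7 kb upstream of Sgk1-202, and of Sgk1-201, which starts 776 bases downstream of it, held neither. Searched on both strands in windows of 250 bases before to 50 bases after the start site, the full element was in 3 of 32851 promoters (0.00913%), in the Sgk1-202 window and in those of Acnat2 and Gm35041. A looser form of it, with fewer fixed bases and overlapping the full one, was in 0.475% of all promoters. Among the windows of the 10 genes it was in the same Sgk1 window only. CACGTG was in 7.15% of all promoters. A match of letters is no evidence of binding, and elements farther from a start site were not searched.

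The Sgk1 transcripts differed in the direction of their CFA6D values. Sgk1-202 (ENSMUST00000092673), the most abundant, was at 17.3, 13.5 and 6.42 FPKM in saline, 16.9, 13.4 and 8.78 FPKM on CFA3D and 23.1, 33.4 and 26.1 FPKM on CFA6D. Sgk1-201, from the start site just downstream, was at 1.41, 1.78 and 1.501 FPKM in saline, 1.95, 1.58 and 0.82 FPKM on CFA3D and 2.86, 5.87 and 4.85 FPKM on CFA6D. Sgk1-204, from the distal start site, was at 1.996, 1.87 and 1.39 FPKM in saline, 1.23, 1.39 and 1.41 FPKM on CFA3D and 0.956, 1.204 and 1.135 FPKM on CFA6D. So both proximal transcripts were higher in every CFA6D library than in any other, whereas each CFA6D library had less of the distal transcript than the lowest saline or CFA3D library. That margin was narrow, and the CFA3D mean of Sgk1-204 (1.35 FPKM) already lay below its saline mean (1.755 FPKM). Its CFA6D difference from saline was -0.62 ± 0.19 (SE, log2 scale, adjusted p = 0.59 by limma over transcripts). From CFA3D it was -0.28 ± 0.19 (adjusted p = 0.92 by limma). The share of all transcripts lowest on CFA6D was not counted. Of the 25 transcripts of the 10 genes with a mean of at least 1 FPKM, Sgk1-204 was the single one whose CFA6D mean lay below its saline mean. These transcripts share most exons, so their levels are the estimates of the authors' software for reads that fit several of them.

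Sik1 (ENSMUSG00000024042, chr17:31844250-31855804, - strand) encodes a salt-inducible kinase that is induced by cAMP and holds the CREB coactivators out of the nucleus. Sik1 was the least abundant of the 10, with 2.44, 2.84 and 3.21 FPKM in saline, 3.20, 4.36 and 2.91 FPKM on CFA3D and 5.71, 7.97 and 8.53 FPKM on CFA6D. The CFA6D libraries lay above all others, and CFA3D library 2 was the highest of the rest. Pdk4 (ENSMUSG00000019577, chr6:5483351-5496309, - strand) encodes pyruvate dehydrogenase kinase 4, which turns cells from glucose to fatty acid oxidation. Pdk4 measured 4.57, 6.81 and 2.88 FPKM in saline, 4.29, 3.88 and 2.63 FPKM on CFA3D and 8.06, 10.4 and 6.56 FPKM on CFA6D. Saline library 2, which also had the highest muscle and adipocyte marker sums, was above CFA6D library 6, and the part of those cells in the Pdk4 level was not tested. The CFA6D difference of Pdk4 was 0.86 ± 0.31 (SE) on the log2 scale, 0.55 without saline library 3 and 1.15 without saline library 2.

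Ddit4, Nfkbia and Cdkn1a encode inhibitors of growth and inflammatory signalling. Ddit4 (ENSMUSG00000020108, chr10:59949669-59951834, - strand) encodes REDD1, which inhibits the mTORC1 kinase. Ddit4 was at 26.3, 24.3 and 16.9 FPKM in saline, 26.4, 27.2 and 16.4 FPKM on CFA3D and 69.4, 79.1 and 63.0 FPKM on CFA6D. It had the widest gap of the 10: the lowest CFA6D library exceeded the highest other library, CFA3D library 2, by far more than the spread within any group. The mean was 22.5 ± 4.93 FPKM in saline, 23.3 ± 6.00 FPKM on CFA3D and 70.5 ± 8.10 FPKM on CFA6D (SD, n = 3), which is 3.13-fold over saline. In saline Ddit4 and Klf9 were at like levels, and on CFA6D Ddit4 was second to Tsc22d3 in FPKM, a unit that is per length.

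Nfkbia (ENSMUSG00000021025, chr12:55489410-55492647, - strand) encodes IκBα, which holds NF-κB in the cytoplasm and is itself a target of NF-κB. Its gene sum was 15.9, 14.6 and 12.1 FPKM in saline, 16.1, 18.3 and 10.1 FPKM on CFA3D and 27.7, 34.5 and 32.2 FPKM on CFA6D. Every CFA6D library exceeded every other one. The 250 bases before the start site of Nfkbia are shown because this promoter is a known target of NF-κB as well as of the glucocorticoid receptor, with the matches to the 10-base κB motif (GGG and CC around 5 free bases) in capitals, on the - strand of GRCm38.p6.
Nfkbia (chr12:55492648-55492897): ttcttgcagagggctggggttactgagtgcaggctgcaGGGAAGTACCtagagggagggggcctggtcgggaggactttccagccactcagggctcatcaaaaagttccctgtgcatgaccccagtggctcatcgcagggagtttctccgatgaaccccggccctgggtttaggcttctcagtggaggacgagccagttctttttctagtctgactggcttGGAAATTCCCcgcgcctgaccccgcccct
The window held GGGAAGTACC at -212 to -203 and GGAAATTCCC, a match on the other strand, at -29 to -20. The κB letters are common, being in 50.8% of all promoters and in 9 of the 17 windows of the 10 genes (6 genes), so the match says little about Nfkbia in particular. None of the 17 windows held the cAMP response element TGACGTCA, which was in 1.79% of all promoters. Sik1, the gene named above as induced by cAMP, had no window and was not searched. The FOXO motif GTAAACA (3.65% of all promoters) was in the Klf9 window alone.

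Cdkn1a (ENSMUSG00000023067, chr17:29090976-29100727, + strand) encodes p21, the inhibitor of cyclin-dependent kinases. Cdkn1a measured 44.6, 35.9 and 31.1 FPKM in saline, 47.6, 44.2 and 34.8 FPKM on CFA3D and 47.9, 52.0 and 32.9 FPKM on CFA6D. The groups overlapped throughout, and CFA6D library 6, the library with the neutrophil markers, was lower than all but 1 of the other libraries. The CFA6D difference from saline was 0.24 ± 0.20 (SE) on the log2 scale, 0.44 without CFA6D library 6 and 0.11 without CFA6D library 5. Its exons overlap a gene on the opposite strand, AC167363.2, and because the labels and the methods name different library kits, reads of the pair may not have been told apart.

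Arrdc2 (ENSMUSG00000002910, chr8:70835129-70839720, - strand) encodes an arrestin-domain protein, a family of adaptors for the ubiquitination and internalisation of membrane receptors. Arrdc2 was at 10.5, 6.57 and 6.35 FPKM in saline, 11.04, 7.998 and 6.61 FPKM on CFA3D and 17.4, 27.4 and 17.7 FPKM on CFA6D. Library 5 stood out within CFA6D, and the lowest CFA6D library was still above every saline and CFA3D library.

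The CFA3D comparison with saline is not the one for which the 10 genes were taken, but it is not an independent test. It shares the saline libraries with the CFA6D values, and the genes were chosen with earlier results of these data known. By limma across all 16096 gene sums, 0 of the 10 genes were called higher and 0 lower on CFA3D than in saline at an unadjusted p under 0.05, and the adjusted p (Benjamini-Hochberg) was 0.997 or more for each. Of all gene sums 3.65% were called higher and 0.808% lower. No gene sum of the 16096 had an adjusted p under 0.05, while 717 (4.45%) had an unadjusted p under 0.05. The differences of the 10 genes ran from -0.34 ± 0.31 (SE) for Pdk4 to 0.28 ± 0.20 for Sik1 on the log2 scale, with a median of 0.07 beside 0.05 over all gene sums.

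The intervals show how large a CFA3D difference these libraries leave possible. For Arid5b the 95% interval ran from -0.42 to 0.22 on the log2 scale, and for Ddit4 from -0.45 to 0.53. For Tsc22d3, the noisiest of the 10, it ran from -0.60 to 0.82. The Pdk4 value depended on single libraries. Its CFA3D difference was -0.65 without saline library 3 (unadjusted p = 0.0429 by limma), -0.043 without saline library 2 and -0.13 without CFA3D library 3, and the last 2 did not pass. None of the other 9 genes came under 0.05 when any 1 library was left out. A p that misses the threshold does not show that the levels were equal.

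**Figure D2:**
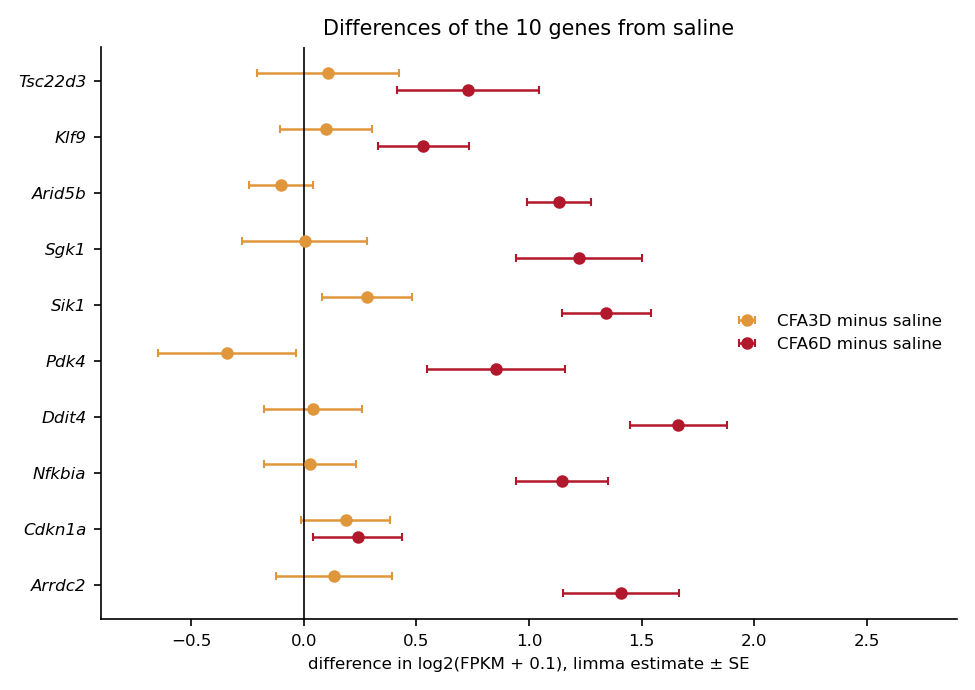
Differences of the 10 genes from saline on the log2(FPKM + 0.1) scale (x axis), for CFA3D and for CFA6D, as limma estimates with bars of 1 SE. The CFA3D points lie between -0.34 and 0.28, and the CFA6D points, which chose the genes, between 0.24 and 1.66.

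For CFA6D against saline the differences are a description. They ran from 0.24 (Cdkn1a) to 1.66 ± 0.22 (SE, Ddit4), with 1.41 ± 0.26 for Arrdc2, 1.34 ± 0.20 for Sik1, 1.22 ± 0.28 for Sgk1, 1.15 ± 0.20 for Nfkbia and 1.13 ± 0.14 for Arid5b. The median of the 10 was 1.14 beside 0.03 for all gene sums. Of the 10, 9 had an unadjusted p under 0.05 with limma, in a comparison in which 8.22% of all gene sums were called higher and 2.85% lower (11.1% either way, and 0 of 16096 at an adjusted p under 0.05), and the smallest adjusted p was 0.073. There were 7 such genes without saline library 2, 6 without saline library 3, 6 without CFA6D library 5, 10 without CFA6D library 6, and 7 without both saline library 3 and CFA6D library 6. Against CFA3D the median was 1.16 and 7 of the 10 were called higher, where 3.06% of all gene sums were.

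The 10 genes had 47 transcripts in the mRNA table and none in the tables of lncRNA and other noncoding RNA. Of the 25 with a mean of at least 1 FPKM, 17 had every CFA6D library above every other library, beside 2.7% of all such transcripts. The higher CFA6D level of Arid5b lay mainly in a short form. Arid5b-203, with 7 exons and a start site 142.1 kb downstream of that of Arid5b-204, was at 1.41, 3.67 and 5.65 FPKM in saline, 1.77, 1.05 and 4.96 FPKM on CFA3D and 14.0, 12.2 and 11.2 FPKM on CFA6D. The longer Arid5b-204, with 10 exons, was at 5.11, 3.75 and 4.28 FPKM in saline, 5.26, 5.31 and 3.29 FPKM on CFA3D and 4.86, 5.91 and 5.45 FPKM on CFA6D. The short form was higher in all CFA6D libraries, and the longer form overlapped between the groups. It was also the short form that was high in the libraries numbered 3.

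Transcripts with a retained intron, which are often unspliced or nuclear RNA, were among those that separated. All 8 of them with a mean of at least 1 FPKM (4 of Arrdc2, 3 of Sgk1 and 1 of Tsc22d3) had every CFA6D library above the rest, with a median fold of 2.69 over saline. The same held for 1.39% of all 7104 such transcripts. Among the 15 protein-coding transcripts of the 10 genes 8 did, with a median fold of 1.72, beside 2.7% of all transcripts of any type with such a mean. The share of all protein-coding transcripts was not counted. The medians of both types come from different sets of genes, and the counts are not compared. Within Sgk1 the retained-intron Sgk1-207, Sgk1-208 and Sgk1-209 had folds of 2.04, 2.16 and 2.81. The coding Sgk1-201, Sgk1-202 and Sgk1-204 had folds of 2.895, 2.22 and 0.626. Sgk1-209, a retained-intron form, was at 7.79, 5.15 and 5.17 FPKM in saline, 8.50, 5.42 and 3.48 FPKM on CFA3D and 14.8, 17.1 and 19.1 FPKM on CFA6D. Klf9-202, a minor noncoding form of Klf9, had a fold of 2.20 over saline beside 1.39 for the coding Klf9-201. The transcripts of a gene share reads and belong to the comparison that chose the gene, so these counts are a description too.

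**Figure D3:**
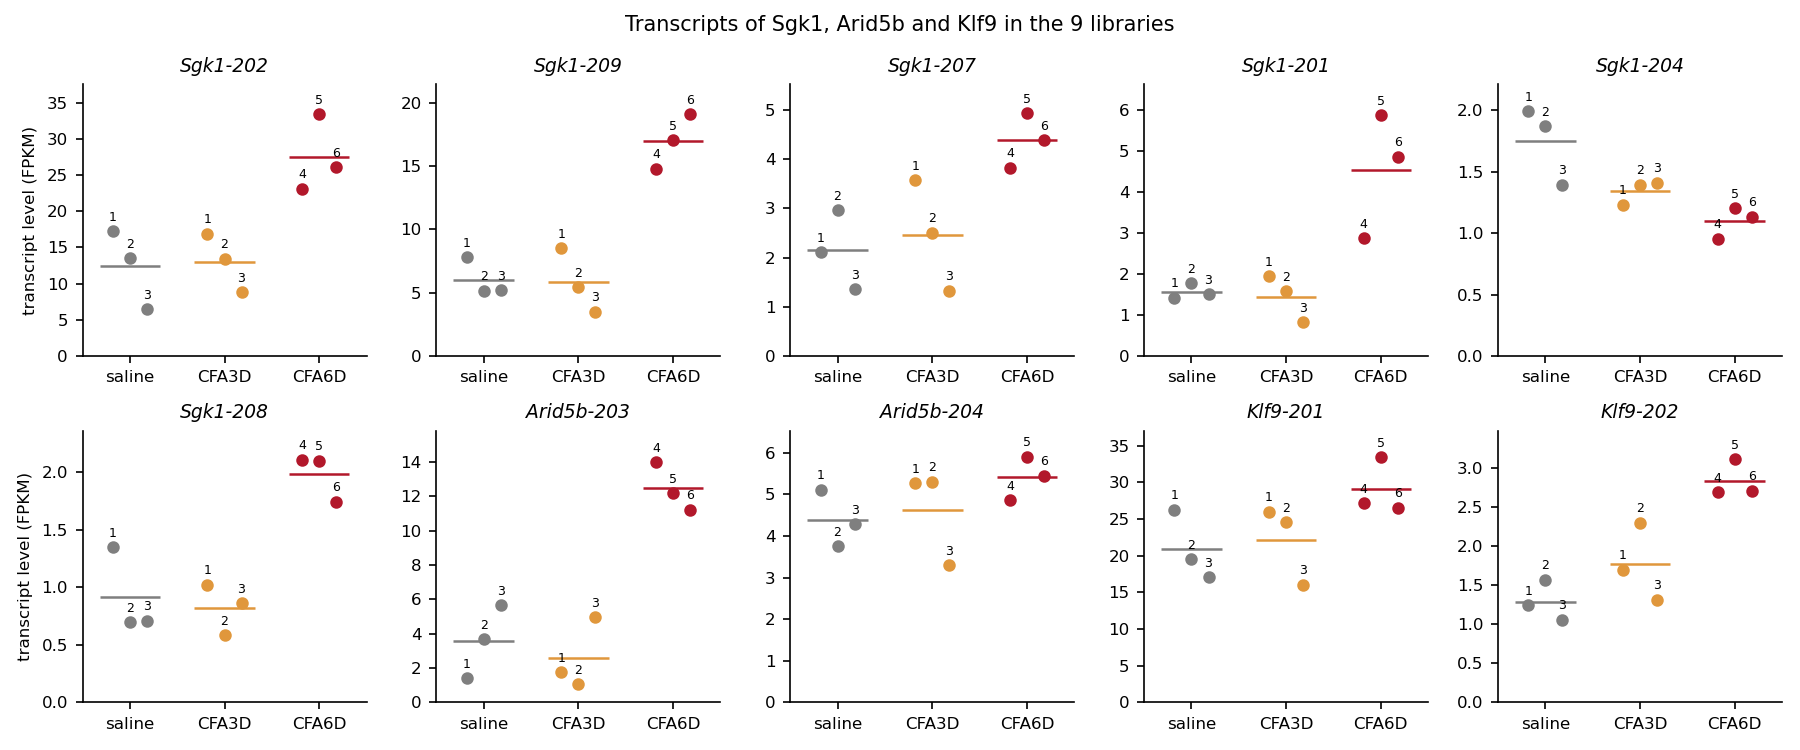
Levels of the 10 transcripts of Sgk1, Arid5b and Klf9 with a mean of at least 1 FPKM, in FPKM (y axes, each starting at 0) in the 9 libraries. Points are libraries with their numbers and bars are group means. Sgk1-204 is lowest on CFA6D while the 5 other Sgk1 transcripts are highest there, and Arid5b-203 separates the groups while Arid5b-204 does not.

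The libraries of a group also ranked alike across the genes. Saline library 3 was the lowest of its group in 8 of the 10 genes and CFA3D library 3 in 9, while CFA6D library 5 was the highest of its group in 8 and CFA6D library 6 the lowest in 6. On a scale where each gene has a mean of 0 and an SD of 1 over the 9 libraries, the mean of the 10 genes was -0.18, -0.50 and -1.08 in saline, -0.09, -0.18 and -1.12 on CFA3D and 0.94, 1.43 and 0.77 on CFA6D. The CFA6D libraries were the 3 highest. The pituitary markers summed to 10660 FPKM in saline library 3 and to 14.98 FPKM in CFA3D library 3, and their part in the levels of the 10 genes was not tested.

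Pairs of the 10 genes correlated over the 9 libraries with a median Pearson r of 0.82 on the log2(FPKM + 0.1) scale, from 0.12 (Arid5b and Cdkn1a) to 0.98 (Ddit4 and Nfkbia), and 25 of the 45 pairs had an r above 0.8. This r rests in large part on the CFA6D libraries, which the choice of genes set apart. Over the 6 saline and CFA3D libraries alone the median was 0.67, from -0.95 (Tsc22d3 and Arid5b) to 0.98 (Tsc22d3 and Ddit4), and 12 pairs were below 0. There, 8 of the genes had positive r with each other (0.26 to 0.98) and 2 stood aside: Arid5b had a negative r with all 9 others (median -0.83), and Sik1 had a median r of 0.07. Without saline library 3 and CFA6D library 6 the median over the remaining 7 libraries was 0.85. These are descriptions over few libraries that share their depth and tissue makeup.

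**Figure D4:**
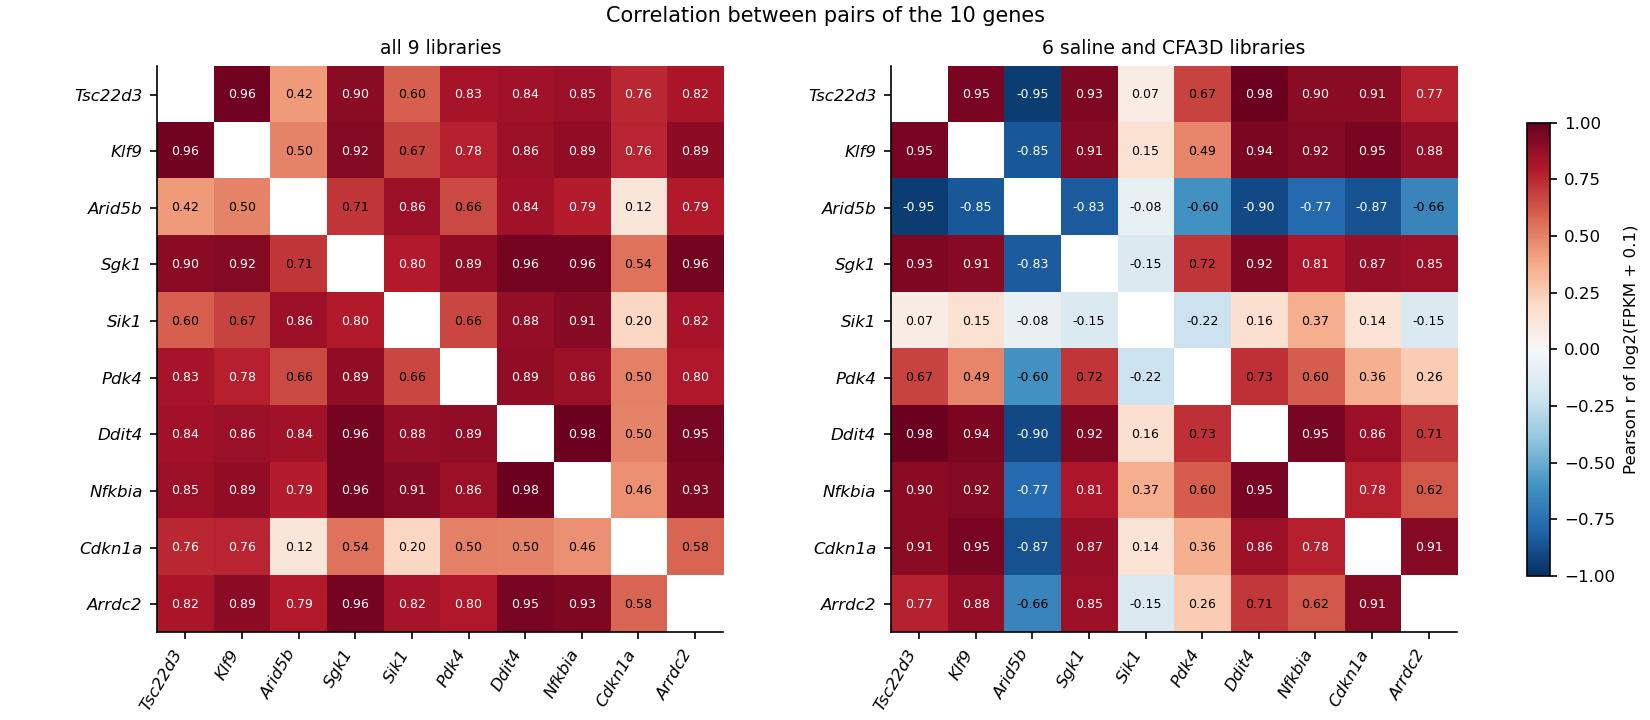
Pearson r of log2(FPKM + 0.1) for each pair of the 10 genes, over all 9 libraries (left) and over the 6 saline and CFA3D libraries (right), coloured from -1 to 1. The Arid5b row turns from positive to negative when the CFA6D libraries are left out, and the Sik1 row goes to values near 0.

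Most of the 10 genes have close relatives, and 19 of the 22 tested were not called. Of these paralogs, 3 were called higher on CFA6D than in saline and 0 lower by limma, beside 8.22% of all gene sums called higher, and their median difference was 0.02 beside 0.03 for all gene sums. The 3 were Klf16 (0.63 ± 0.15 SE on the log2 scale, adjusted p = 0.173) and Klf13 (0.60 ± 0.17, adjusted p = 0.231), relatives of Klf9, and Arid5a (0.37 ± 0.12, adjusted p = 0.276), the relative of Arid5b. All 3 had every CFA6D library above every other. The kinases next to Sgk1, Sik1 and Pdk4 gave no call. Sgk3 had a difference of 0.15 ± 0.19, Sik2 of -0.06 ± 0.21, Sik3 of -0.02 ± 0.17, Pdk1 of -0.00028 ± 0.18, Pdk2 of 0.07 ± 0.15 and Pdk3 of -0.02 ± 0.10.

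Other paralogs with a mean of at least 1 FPKM gave no call either. Tsc22d1, as abundant as Tsc22d3 in saline, had a difference of 0.01 ± 0.16, and Tsc22d2 and Tsc22d4 had 0.08 ± 0.12 and -0.19 ± 0.13. The other inhibitors of the IκB family, Nfkbib and Nfkbie, had 0.02 ± 0.11 and -0.03 ± 0.26. Cdkn1b and Cdkn1c, of the family of Cdkn1a, had 0.42 ± 0.20 and -0.12 ± 0.25, and the Arrdc2 relatives Arrdc1, Arrdc3, Arrdc4 and Txnip had 0.09 ± 0.11, -0.28 ± 0.30, 0.31 ± 0.15 and 0.22 ± 0.16 (SE, log2 scale). The low paralogs Sgk2 and Ddit4l, each under 1 FPKM on average, were not called.

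A list of 30 other genes known to be induced by glucocorticoids was read next to the 10. It was made with earlier results of these data known, so its CFA6D counts are a description. Of the 29 tested, 10 were called higher on CFA6D than in saline and 0 lower (unadjusted p under 0.05 by limma), beside 8.22% higher and 2.85% lower among all gene sums, with a median difference of 0.43 on the log2 scale beside 0.03 for all gene sums. With a log2 difference of at least 1 also required, 2 were called. The smallest adjusted p in the list was 0.191. On CFA3D 0 of the 29 were called either way and the median was 0.05, the same as over all gene sums. Without saline library 3 and CFA6D library 6 the CFA6D count was 10 and the CFA3D count was 2.

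Among these genes, Per1, a clock gene that glucocorticoids induce directly, was at 14.6, 11.9 and 8.76 FPKM in saline, 16.1, 12.5 and 6.58 FPKM on CFA3D and 23.2, 26.5 and 25.2 FPKM on CFA6D. Hif3a, an inhibitory member of the hypoxia factor family, was at 3.44, 2.35 and 2.25 FPKM in saline, 3.22, 2.28 and 1.16 FPKM on CFA3D and 6.34, 8.11 and 5.38 FPKM on CFA6D. In both, every CFA6D library was above all others, as in Bcl6, a transcriptional repressor (0.62 ± 0.16 SE on the log2 scale), and in Gadd45g, a stress sensor (0.68 ± 0.19). The adjusted p of these 4 genes was 0.191 to 0.234 by limma. The widely used reporters of the hormone, Fkbp5 (0.72 ± 0.33, unadjusted p = 0.0531 by limma) and Zbtb16 (0.48 ± 0.46), named here after their values were seen, did not pass. The metallothioneins Mt1 and Mt2, the most abundant of the list, had differences of -0.30 ± 0.21 and -0.13 ± 0.25.

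The RNA of the receptor itself was called lower on CFA6D. Nr3c1, which encodes the glucocorticoid receptor, was at 14.9, 11.98 and 13.0 FPKM in saline, 13.6, 16.3 and 14.5 FPKM on CFA3D and 9.74, 10.2 and 12.4 FPKM on CFA6D. The groups overlapped by 1 library, and the difference from saline was -0.30 ± 0.12 (SE, log2 scale, unadjusted p = 0.0359 and adjusted p = 0.41 by limma). Its coactivator Ncoa1 was called higher (0.27 ± 0.07, adjusted p = 0.205 by limma). Over the 16 genes of the receptor, its cofactors and its chaperones, the median was 0.02. The chaperones Hsp90ab1 and Hspa8 had 0.20 ± 0.10 and -0.18 ± 0.14.

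Of 16 inflammatory genes that glucocorticoids repress, 12 could be tested and 0 were called either way on CFA6D, with a median of 0.12. Of all gene sums 8.22% were called higher and 2.85% lower. Without CFA6D library 4, 3 of the list were called higher, beside 7.11% of all gene sums. Mmp9, a collagenase stored in neutrophils, was at 1.82 and 3.23 FPKM in CFA6D libraries 4 and 5 and at 34.1 FPKM in CFA6D library 6, in which the neutrophil markers were high. Its difference was 1.93 ± 0.91, and that of Mmp13 was 1.13 ± 1.28, of Il1b 0.61 ± 0.70, of Vcam1 0.30 ± 0.43 and of Ccl2 -0.37 ± 0.40 (SE, log2 scale).

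Lists for the other known inputs of the 10 genes were compared in the same way. Of 18 immediate early genes, which neurons and other cells induce within minutes of a stimulus, 8 were called higher on CFA6D and 0 lower, beside 8.22% and 2.85% of all gene sums, with a median of 0.48. The count was also 8 without saline library 3 and CFA6D library 6. On CFA3D 1 of the 18 was called higher, Jun (0.30 ± 0.07, unadjusted p = 0.00278 and adjusted p = 0.997 by limma), and 3 were without saline library 3 and CFA6D library 6. The 4 with the smallest p were Jun (0.47 ± 0.07, adjusted p = 0.0862), Fosl2 (1.07 ± 0.21, adjusted p = 0.124), Egr3 (1.19 ± 0.27, adjusted p = 0.153) and Nr4a1 (0.99 ± 0.23, adjusted p = 0.162), and each had all CFA6D libraries above all others. Jund, the most abundant, had 0.12 ± 0.12. Their part in the levels of the 10 genes was not tested.

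The NF-κB, p53, ATF4 and FOXO lists had medians nearer to that of all gene sums, of which 8.22% were called higher and 2.85% lower. Of 12 NF-κB feedback genes 3 were called higher, Nfkbia itself with Relb (0.35 ± 0.13) and Tnip1 (0.31 ± 0.13), and the median was 0.03, with Birc3 at 0.50 ± 0.28 and Nfkb1 at 0.02 ± 0.15. Of 12 p53 targets, which include Cdkn1a, 1 was called higher (Zmat3, 0.29 ± 0.10) and 2 lower (Plk2, -0.51 ± 0.18, and Ccng1, -0.27 ± 0.08), with Sesn1 at 0.35 ± 0.21 and a median of 0.05, and 0 were called higher without saline library 3. Of 12 ATF4 targets Ddit4 was the single one called, and the median was -0.02: Atf3 had 0.60 ± 0.29, Trib3 -0.45 ± 0.23, Vldlr -0.16 ± 0.09 and Asns 0.06 ± 0.10. Of 16 FOXO and fasting targets 2 were called higher, Pdk4 and Bcl6, and the median was 0.15, with Angptl4 at -0.45 ± 0.22 and Gabarapl1 at 0.15 ± 0.10.

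Of 17 clock genes 2 were called higher, Per1 (1.11 ± 0.29, adjusted p = 0.201 by limma) and Cry2 (0.37 ± 0.10, adjusted p = 0.201), and 1 lower, Clock (-0.48 ± 0.13, adjusted p = 0.208), beside 8.22% and 2.85% of all gene sums. The median was 0.05. Nr1d2 had -0.28 ± 0.12 and Tef 0.05 ± 0.13 (SE, log2 scale). The levels of several of the 10 genes follow the daily rhythm of the hormone as well as stress, and the part of the hour of collection was not tested.

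**Figure D5:**
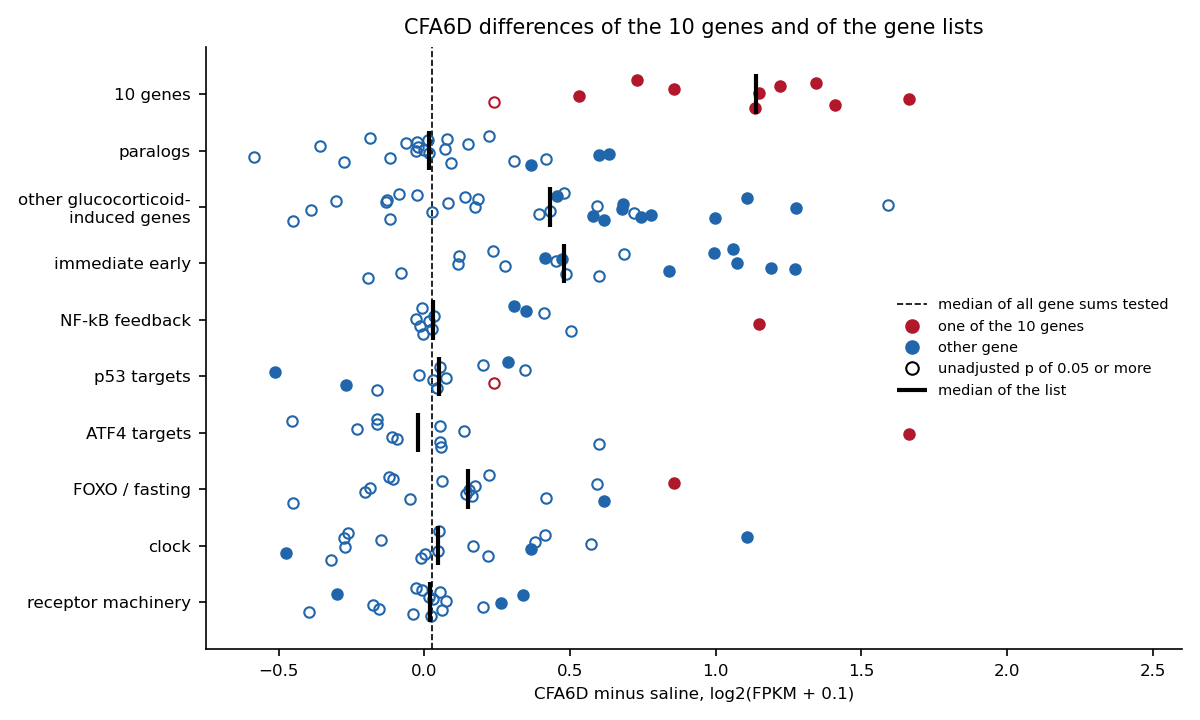
CFA6D minus saline differences in log2(FPKM + 0.1) (x axis) of the 10 genes, their paralogs and 8 gene lists (rows). Filled points have an unadjusted p under 0.05 by limma, red points are the 10 genes, thick bars are list medians and the dashed line is the median of all gene sums tested, 0.03. The medians of the other glucocorticoid-induced genes and of the immediate early genes lie at 0.43 and 0.48, and those of the other lists between -0.02 and 0.15.

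The genes whose pattern was most like that of the 10 were found among 13165 other gene sums averaging 1 FPKM or more, by Pearson r with the mean standardised level of the 10 over the 9 libraries. They were Nr4a1 (r = 0.97), Per1 (0.97), Mef2d (0.96), Hif3a (0.95), Klf2 (0.95), Tob2 (0.95), Tmem184b (0.95), Spsb1 (0.94), Arhgef7 (0.93) and Bcl6 (0.93). Over the 6 saline and CFA3D libraries their r was 0.77 to 0.95. These 6 are among the 9 libraries that picked the genes, so this range is a description and not separate support. Klf2, a Krüppel-like factor of endothelial and T cells, was at 7.24, 5.90 and 4.26 FPKM in saline, 7.998, 11.4 and 3.42 FPKM on CFA3D and 13.5, 19.6 and 18.1 FPKM on CFA6D. Like most of the 10 genes it was lowest in the libraries numbered 3. Mef2d, an activity-dependent transcription factor of neurons, followed the pattern in a narrow range, with 13.6 ± 0.53 FPKM in saline, 13.6 ± 1.43 FPKM on CFA3D and 16.4 ± 0.74 FPKM on CFA6D (SD, n = 3).

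Markers of other cells moved with the CFA6D group in part. Their counts of calls stand beside 8.22% of all gene sums called higher and 2.85% lower on CFA6D than in saline. The 8 neutrophil markers summed to 49.9 to 126 FPKM in saline, 25.7 to 76.8 FPKM on CFA3D and 129 to 2749 FPKM on CFA6D, with 2 of the 8 called higher on CFA6D and none at 0 in all libraries. The sums in CFA6D libraries 4 and 5 were 142 and 129 FPKM. The 13 sensory neuron markers summed to 2632 to 3305 FPKM in saline and 3287 to 3967 FPKM on CFA6D, with 4 of 13 called higher. The macrophage markers summed to 96.1 to 118 FPKM in saline and 58.7 to 92.9 FPKM on CFA6D with 1 of 8 called lower, and 3 of 6 fibroblast markers were called lower (420 to 533 FPKM in saline and 318 to 534 FPKM on CFA6D). Satellite glia, Schwann cell, endothelial, erythroid, adipocyte and pituitary markers gave 0 calls on CFA6D with all libraries, and 2 of 11 muscle markers were called lower. Without saline library 3 and CFA6D library 6, 4 of 6 pituitary, 1 of 7 Schwann cell, 3 of 13 sensory neuron and 0 of 8 neutrophil markers were called higher. Of all gene sums 5.5% were called higher in that setting. The part of a changed cell makeup in the levels of the 10 genes was not tested.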

How the data were processed

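Expression was analysed in 9 libraries of mouse TG, 3 each of saline, CFA3D and CFA6D. Groups came from the labels. The authors deposited FPKM per transcript in 3 tables (mRNA, lncRNA, other noncoding RNA). The paper's methods name trimming with Trimmomatic, mapping to GRCm38 and CLC Genomics Workbench, and the submitters' processing notes name Bowtie 0.12.2 and mm8 without a role. The program that gave the FPKM is not given in the sources used here, nor are read counts. Sources also differ on the kit (TruSeq RNA in the labels, stranded total RNA after Ribo-Zero in the methods). All per-sample columns were used (0 left out).

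FPKM of the transcripts of each gene name (GENCODE release 21 for mouse) were summed, leaving out 26 gene identifiers with a repeated symbol. Depth was estimated from where FPKM times length of the least covered transcripts clustered, taken as 1 read pair (1 read pair at 1 kb was worth 0.0232 to 0.0327 FPKM). Gene sums averaging 0.1 FPKM or more were tested as log2(FPKM + 0.1), a scale that understates changes of low genes, in limma 3.58.1 (R 4.3.3) allowing the variance to follow the mean level, in 1 fit of all 9 libraries without covariates. A call is an unadjusted p under 0.05, with Benjamini-Hochberg adjustment over all gene sums beside it. An exact permutation test of 3 against 3 cannot go below 0.1, so none is given for single genes. Where nothing states that pools came from separate experiments, p-values measure the spread between pools. The fit was tested on simulated data. Python 3.11.15, numpy 2.4.6, pandas 2.3.3 and matplotlib 3.10.9 did the rest.

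The 10 genes and all lists were chosen with earlier results of these data known. Named genes follow a rule: all 10, per list up to 4 with the smallest p and up to 2 with the highest mean on CFA6D against saline, all paralogs with a mean of at least 1 FPKM, and the 10 gene sums most like the 10 genes. The result of 1 gene under this rule is not reported here. Promoter windows (250 bases before to 50 after a start site) are those of RefSeq, GRCm38.p6. Alternatives tried were no filter, a minimum average of 1 FPKM, pseudocounts of 0.01 and 1, quantile normalization, only the groups compared, the top transcript in place of the sum, a log2 change of at least 1, the replicate number as a block, and leaving out each library.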

Additional observations from a re-analysis of the deposited data

How the results depend on the processing

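The number of the 10 genes called higher on CFA3D was 0 under all 20 alternatives. Leaving out 1 library at a time, the number called higher on CFA6D against saline ran from 6 to 10 and against CFA3D from 7 to 8, and that of the other glucocorticoid-induced genes from 9 to 13. A minimum log2 change of 1 left 2 of the latter 10. Of the 10 genes followed here, it left 6 called higher on CFA6D against saline, in place of 9, and 7 against CFA3D. With leaving out saline library 3 and CFA6D library 6, or both libraries numbered 3, which were chosen after seeing the data, the CFA6D counts were 7 and 9. CFA3D differences near 0 changed sign when 1 library was left out: Tsc22d3 ran from -0.223 to 0.412, Klf9 from -0.0392 to 0.314, Arid5b from -0.209 to 0.0554, Sgk1 from -0.258 to 0.261, Ddit4 from -0.15 to 0.276, Nfkbia from -0.144 to 0.279 and Arrdc2 from -0.0633 to 0.367 on the log2 scale. Without both saline library 3 and CFA6D library 6 they were -0.22 (Tsc22d3), -0.0392 (Klf9), 0.0555 (Arid5b), -0.26 (Sgk1), -0.15 (Ddit4) and -0.08 (Nfkbia). Quantile normalization gave -0.0714 for Sgk1, -0.0394 for Ddit4 and -0.0255 for Nfkbia, the top transcript gave -0.0097 for Nfkbia, and leaving out both libraries numbered 3 gave -0.0011 for Sgk1. The causes were not tested. On CFA6D no gene changed sign. Of 18 alternatives, Tsc22d3 missed an unadjusted p of 0.05 in 8, Klf9 in 6 and Pdk4 in 2. Over 16096 gene sums the same-numbered saline and CFA3D libraries deviated together with r of 0.09, -0.08 and 0.03. In the 10 genes alone, saline library 3 was the lowest of its group in 8 and CFA3D library 3 in 9. Whether these libraries share more than a number was not tested for the 10 genes. With the replicate number as a block 0 of the 10 genes were called higher on CFA3D, and 281 of all gene sums in place of 587. The CFA6D libraries carry other numbers, so no block could be made there. Depth gave at least 292 approximate read pairs behind each gene in each library, and 3 pools per group limit the precision.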
